A study of Homo sapiens with 11 samples.

Results

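Knockdown of nemo-like kinase (NLK) in the breast cancer line BT483 was described across all genes in 3 libraries of a series of 11. These were the libraries labelled for NLK siRNA type 1, for NLK siRNA type 2 and for the control siRNA. BT483 is an established estrogen receptor positive line from a human ductal carcinoma. All of its cultures were kept for 48 h in estrogen-deprived medium and then transfected for 72 h with 10 nM of a small interfering RNA (siRNA), a short duplex that directs cleavage of a matching mRNA. The controls received a pool of non-targeting siRNAs. Another BT483 library came from control siRNA with 0.5 µM tamoxifen, an antiestrogen, and is given below for reference. T47D-TamR, a tamoxifen-resistant derivative of the T47D breast cancer line that is propagated in tamoxifen, was transfected with the same siRNAs in the same arrangement, control siRNA with 0.5 µM tamoxifen included, and is the comparison most like this one. The tests across libraries also used T47D-TamR cultures without siRNA: one with DMSO alone, one with the p38 inhibitor VX-702 at 0.5 µM, and one with tamoxifen at 0.5 µM and DMSO. All T47D-TamR cultures, with or without siRNA, were likewise kept for 48 h in estrogen-deprived medium. Each group held 1 library, so a ratio between BT483 libraries has no replicate check and no p-value. The p-values given come from fits of all 11 libraries, in which the siRNAs stand in for replicates.

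NLK belongs to the wider MAP kinase family and phosphorylates serines and threonines. It is known as a target of TAK1 (MAP3K7) signalling and phosphorylates transcription factors of the TCF/LEF, FOXO and Notch pathways, among others. It is best known for restraining transcription by β-catenin and TCF/LEF in Wnt signalling. The comparison asked which genes differ when NLK is lowered, and which of these differ with both siRNAs.

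The siRNA sequences are shown because they set what the 2 libraries share and what each may do apart. The study's protocol gives a number to each siRNA, and types 1 and 2 of the labels were matched to numbers 1 and 2 by the numbering alone. In the sense strands below, capitals mark the 7 bases that pair with the seed of the guide strand, its bases 2 to 8, a stretch that can also pair with sites in other transcripts.
siRNA #1: gucaguaacagAUCCAAGa
siRNA #2: gagcugaauuuGAAGACUa
The sequence of siRNA #1 lies in the coding sequence of NLK, in exon 2 of 11, at chr17:28122603-28122621 on the plus strand (GRCh38, GENCODE 29). The sequence of siRNA #2 lies in the 3′ untranslated region in exon 11, at chr17:28196045-28196063. Neither had an exact match in a transcript of another gene. The protocol lists siRNA #1 from a pair of suppliers, one being the more potent, and does not say which was used.

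Total counts in the control, type 1 and type 2 libraries were 16859630, 14637083 and 25728513, so that the type 2 library was the deepest. Mitochondrially encoded genes took 10.2%, 10.00% and 9.18% of counts. The 10 luminal epithelial markers summed to 17243, 15977 and 16884 counts scaled per library size (CPM), with ESR1, GATA3, KRT8 and EPCAM among them. The 14 leukocyte and endothelial markers summed to 2.32, 4.52 and 3.27 CPM, and 4 of them were at 0 in all 3 libraries. The 16 mesenchymal and fibroblast markers summed to 201 CPM, 187 CPM and 289 CPM, led by COL5A1 and FN1. Within the BT483 libraries, fewer cells in a state and less RNA per cell cannot be told apart. Each library came from its own dish, per the labels' protocols, and nothing more is said of how cultures were split.

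NLK mRNA was the first check of the labels. The control library had 31.5 CPM, the type 1 library 8.91 CPM and the type 2 library 5.76 CPM, while control siRNA with tamoxifen had 36.9 CPM. Both knockdown libraries were below both control siRNA libraries. NLK was at 28.3% of control with type 1 (95% interval 23.2 to 34.3) and at 18.3% with type 2 (15.1 to 22.0). These are exact binomial intervals of a ratio of counts. Like every interval here, they hold counting error alone, since amplified reads that carry no molecular identifier may copy 1 molecule. On the log2 scale the differences were -1.81 and -2.43, with TMM scaling and a prior count of 2.

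A fit of all 11 libraries treated the siRNAs as replicates of knockdown and took the spread from libraries of the other line as well, with the lone control assumed to vary like them. Its calls therefore also reflect how far the siRNAs, which are different reagents, differ from each other, and a gene it does not call is not shown to be equal. With this quasi-likelihood test in edgeR, NLK had a log2 fold change of -2.13 (SE 0.26, adjusted p = 0.0198) and was the 1 gene called of 24023 tested, or 0.00416%. At an unadjusted p under 0.05 there were 814 genes. NLK lost the call without type 2 (edgeR adjusted p = 0.178) and without 4 of the T47D-TamR libraries, those with control siRNA (0.443), control siRNA and tamoxifen (0.353), DMSO (0.379) and DMSO with tamoxifen (0.49). Without type 1, 149 genes were called. TOP2A was next with an edgeR log2 fold change of -1.56 (SE 0.23, adjusted p = 0.176).

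Both lines received the same siRNAs, so a fit with the siRNA type as a block, chosen after the data were seen, removed a difference between siRNAs that both lines share. It left 2 residual degrees of freedom against 3. The block assumes that the siRNAs differ alike in both lines, which was not tested. Interferon-stimulated genes had median log2 ratios of 0.67 and 1.93 with types 1 and 2 in BT483, and of 0.11 and 0.86 in T47D-TamR. Nuclear oxidative phosphorylation genes had medians of -0.0015 and 0.37 in BT483, and of 0.15 and -0.39 in T47D-TamR. The medians thus differed in the same direction in both lines for the first list and in opposite directions for the second, where the assumption did not hold. The p-values do not measure how a BT483 control library varies, since there was only 1 without tamoxifen. With this block edgeR called 282 genes, 208 lower (0.866%) and 74 higher (0.308%), and NLK had a log2 fold change of -2.14 (SE 0.22, adjusted p = 1.5e-09). Of the genes past 1.5-fold with both siRNAs, described next, it called 117 of 141 lower and 29 of 63 higher. Those genes were chosen on the same BT483 libraries and control, so this overlap is no independent support for them. Of the lists it called lower 36 of 40 genes of G2 and mitosis and 19 of 40 of G1/S and DNA replication. It called higher 24 of 41 interferon-stimulated genes, 8 of 23 genes of double-stranded RNA sensing and 9 of 20 of MHC class I presentation. USP18 and EIF2AK2 are counted in both the interferon-stimulated and the sensing list. These calls depend on the block: without it, at the main settings, NLK alone was called. At other settings without the block, from 0 to 163 genes were called.

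Of 12268 genes with a mean of at least 5 CPM over the 3 libraries, 141 were at least 1.5-fold lower with both siRNAs, which is 1.15%, and 63 were at least 1.5-fold higher with both, which is 0.514%. Of the 141, 45 were on a gene list of this account, 34 of them on that of G2 and mitosis and 8 on that of G1/S and DNA replication. Of the 63, 24 were on a list, 19 of them on that of interferon-stimulated genes. Both ratios divide by the same control library, so an extreme value in that library moves them together. In the check on simulated data, genes made without any difference passed this rule at least as often. That check gave all genes a common spread, that of the fit of all 11 libraries, which also holds differences between the siRNAs. It therefore cannot give the number to be expected without knockdown in these BT483 libraries. The counts by themselves are no test of an effect of knockdown. With type 1 alone 267 genes were lower (2.18%) and 118 higher (0.962%). With type 2 alone 668 were lower (5.45%) and 647 higher (5.27%). The middle 50% of the log2 ratios lay between -0.14 and 0.11 with type 1 and between -0.18 and 0.21 with type 2.

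**Figure D1:**
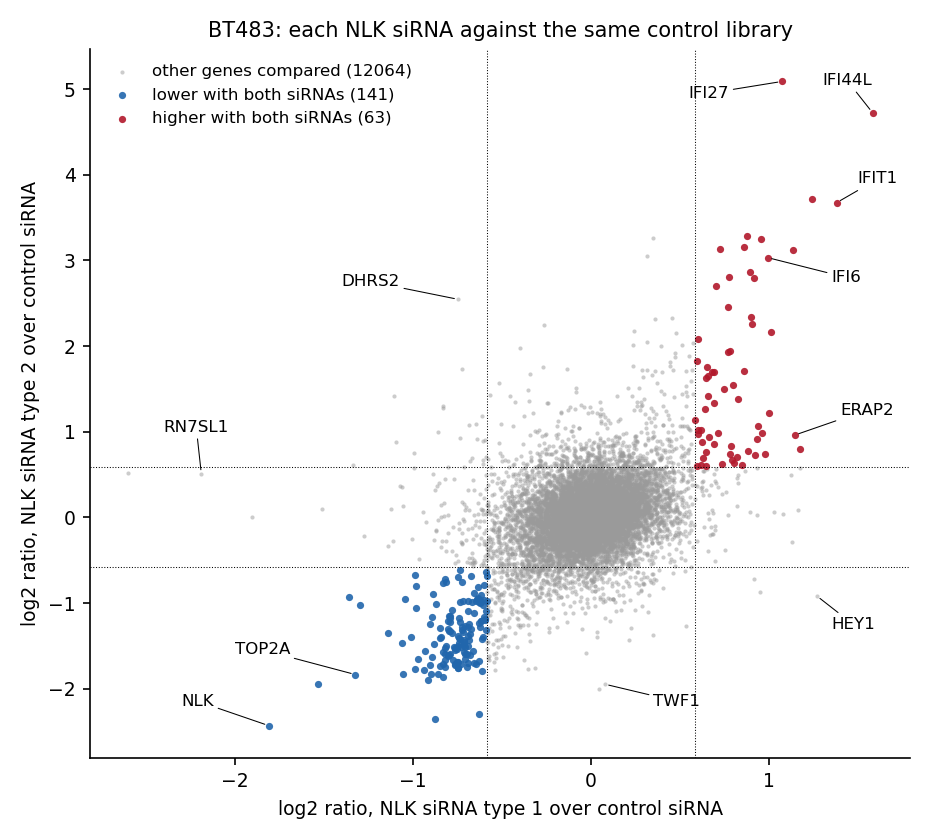
Log2 ratio of each gene over the control siRNA library, with NLK siRNA type 1 on the horizontal axis and type 2 on the vertical axis, for the 12268 genes compared in BT483. Dotted lines mark 1.5-fold, blue points are the 141 genes lower with both and red points the 63 genes higher with both. NLK is at the lower left, and IFI27 and IFI44L are at the upper right.

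Among the 141 genes lower with both siRNAs, 131 are protein coding. Their median log2 ratio was -0.74 with type 1 and -1.38 with type 2, beside -0.0092 and 0.019 over all genes compared. In 131 of the 141 the difference was larger with type 2, and 10 were past 2-fold with type 1 against 111 with type 2. Among the 63 genes higher with both, 54 are protein coding, and the medians were 0.78 and 1.38. In 49 of the 63 the difference was larger with type 2. In 20 of the 63 the control library was under 5 CPM, so they were compared only through the libraries in which they are high. The counting interval of both ratios excluded 1 for all 141 lower genes and for 62 of the 63 higher genes. These genes were chosen by the same ratios, so this is no separate support for them. Of all 12268 genes compared, 2256 had both intervals on the same side of 1.

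TOP2A encodes a topoisomerase that separates intertwined DNA before cell division. Its levels were 306 CPM in the control library, 122 CPM in type 1 and 85.6 CPM in type 2. Its log2 ratios were -1.32 and -1.83, the furthest of the lower genes after NLK by the smaller of the 2 ratios among named genes. The 3′ UTR of TOP2A holds 1 match to the seed of each siRNA, and an effect through these was not tested. TTK, a spindle checkpoint kinase, was at 15.98, 7.63 and 4.43 CPM in the same order. CCNA2, cyclin A2, which drives S phase and entry into mitosis, was at 46.0, 24.4 and 12.3 CPM. In these genes each knockdown library was below control and type 2 was below type 1. CEP55, which acts in the last separation of daughter cells, was at 25.9, 13.2 and 8.17 CPM. KIF18A, a kinesin that aligns chromosomes on the spindle, was at 9.86, 5.13 and 3.27 CPM. DLGAP5, a spindle protein, was at 52.0, 27.8 and 15.6 CPM. TROAP, a mitotic protein, was at 69.3, 36.2 and 20.1 CPM, and PBK, a mitotic kinase, at 20.7, 10.2 and 7.78 CPM. CDKN3, a phosphatase acting on cyclin-dependent kinases, was at 27.9, 14.0 and 8.09 CPM. All of these genes showed the same order of libraries.

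Replication genes among the named ones followed the same order. E2F7, a repressor of the E2F family, was at 22.4, 10.1 and 8.71 CPM with control, type 1 and type 2. CDC45, a part of the replicative helicase, was at 15.5, 8.24 and 6.50 CPM. ESCO2, the acetyltransferase that makes sister chromatids cohere, was at 11.6, 5.54 and 4.16 CPM. Not all of the lower genes belong to the cell cycle. ACOX2, a peroxisomal enzyme that oxidizes branched fatty acids and bile acid precursors, was at 13.2, 6.62 and 6.26 CPM. ABI3BP, an extracellular matrix protein, was at 16.7, 8.04 and 8.56 CPM, and PEG3, an imprinted zinc finger gene, at 25.9, 10.1 and 13.5 CPM. In the last 2 type 1 was the lower library.

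**Figure D2:**
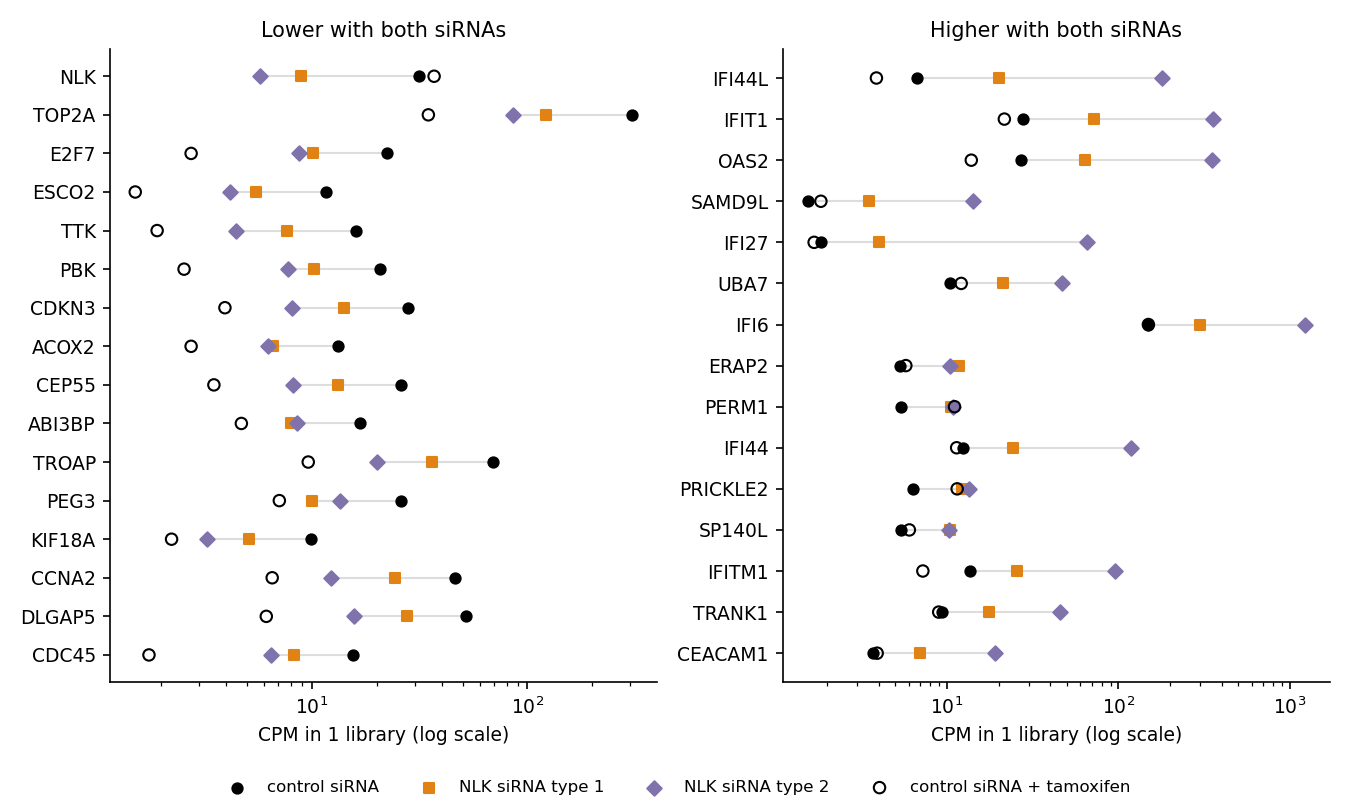
CPM in each BT483 library, on a log axis, of NLK and the 15 other named genes lower with both siRNAs (left) and the 15 named genes higher with both (right); each point is 1 library. The open circle, control siRNA with tamoxifen, lies below all 3 other libraries for each lower gene except NLK.

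Genes of the G2 phase and mitosis were the group furthest below control. Of 40 such genes on the list 37 could be compared, and 34 of these were lower with both siRNAs, none higher. All 37 had a ratio below 0 with each siRNA, against 52.1% of all genes compared with type 1 and 47.5% with type 2. The median log2 ratio was -0.75 with type 1 and -1.59 with type 2, and the values with type 2 ran from -1.90 to -0.87. The cyclin-dependent kinase CDK1 was at 90.2, 53.8 and 26.5 CPM with control, type 1 and type 2. The proliferation marker MKI67 was at 221, 131 and 75.9 CPM. FOXM1, a transcription factor of mitotic genes, was at 94.3, 53.4 and 29.6 CPM, and the mitotic kinase AURKB at 21.0, 13.3 and 6.42 CPM. The 3 compared members short of the fold with type 1 were SMC2, BUB1B and ECT2, at -0.58, -0.55 and -0.53.

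Genes of the G1/S transition and DNA replication were below control by less. All 40 were compared, 8 were lower with both siRNAs, and none was higher. All 40 had a ratio below 0 with each siRNA, with medians of -0.46 and -0.97, and 33 were past 1.5-fold with type 2. TK1, thymidine kinase, was at 66.1, 36.7 and 27.0 CPM. E2F1, the activator of the G1/S program, was at 89.8, 51.5 and 38.7 CPM. The 8 were E2F7, CDC45, TK1, E2F1, UHRF1, DTL, PRIM1 and CDC6. Among them the ratio was nearest to the threshold with type 1 in CDC6, which loads the helicase onto origins (-0.61).

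The G1 cyclins, CDK4, CDK6 and their inhibitors gave 0 of 16 compared members past the fold with both siRNAs in either direction, with medians of -0.22 and -0.17. CCND1, cyclin D1, was at 526, 468 and 409 CPM, and its log2 ratios were -0.17 and -0.36. CDKN1A, the inhibitor p21, was at 497, 725 and 668 CPM, with log2 ratios of 0.54 and 0.43, above control with each siRNA but short of the fold. CDKN2C, an inhibitor of CDK4 and CDK6, was at 16.2, 12.1 and 7.08 CPM and was past the fold with type 2 only. With the siRNA type as a block edgeR called CDKN2C lower (log2 fold change -0.81, SE 0.21, adjusted p = 0.0229). The p53 targets, a list that includes CDKN1A, had 0 of 26 past the fold with both and medians of 0.096 and 0.26. Above 0 were 19 of the 26 with type 1 and 24 with type 2, against 47.9% and 52.5% of all genes compared. Over all genes 1.15% were lower and 0.514% higher with both siRNAs, so the counts of 0 in these lists are near the background.

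The library with control siRNA and tamoxifen lay below all 3 other libraries for 126 of the 141 genes lower with both siRNAs. TOP2A stood there at 34.7 CPM, MKI67 at 21.5 CPM and E2F1 at 13.0 CPM. Of the 63 genes higher with both siRNAs, 6 were higher still with tamoxifen and 27 were below all 3 other libraries. How often the tamoxifen library was the lowest or highest over all genes compared is not given, so these counts have no background. Both comparisons share the control siRNA library. Set against the tamoxifen library in its place, the G2/M list had 0 of 37 members lower and 35 higher with both siRNAs, with medians of 2.03 and 1.17. Over all 12268 genes compared, that control gave 169 lower and 565 higher with both.

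Of the lists, that of interferon-stimulated genes had the most members higher with both siRNAs. They encode antiviral proteins and are switched on when a cell senses interferon or foreign nucleic acid. Of 41 on the list 34 could be compared, 19 were higher with both siRNAs and none was lower. All 34 had a ratio above 0 with each siRNA. The medians were 0.67 with type 1 and 1.93 with type 2, and all 34 were past 1.5-fold with type 2. Of all genes compared 47.9% were above 0 with type 1 and 52.5% with type 2. In 4 of the 34 the control library was under 5 CPM, so that they were compared only through libraries in which they are high.

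IFI44L, an interferon-stimulated gene of the cytoplasm, was at 6.65, 20.1 and 179 CPM in the control, type 1 and type 2 libraries. IFIT1, which binds viral RNA ends, was at 27.7, 72.5 and 356 CPM. OAS2, which makes the oligoadenylates that activate RNase L, was at 26.9, 63.7 and 353 CPM. Control with tamoxifen was at 3.87 CPM for IFI44L, 21.6 CPM for IFIT1 and 13.9 CPM for OAS2, below each knockdown library. IFI27 was at 1.84, 3.98 and 66.0 CPM, the largest ratio with type 2 of all genes compared (log2 5.09). IFI6, which acts against viral replication, was at 149.6, 298 and 1225 CPM. MX1, a dynamin-like antiviral GTPase, was at 103, 192 and 753 CPM. ISG15, a ubiquitin-like modifier, was at 39.9, 68.4 and 279 CPM, and UBA7, the enzyme that activates ISG15, at 10.5, 21.2 and 47.1 CPM. In each the type 2 library was the highest by far and type 1 lay between. In the edgeR fit the spread between the siRNAs entered the error. IFI44L there had a log2 fold change of 3.89 (SE 1.84, adjusted p = 1) and IFIT1 one of 2.94 (SE 1.38, adjusted p = 1). With the siRNA type as a block edgeR called OAS2 (log2 fold change 2.50, SE 0.27, adjusted p = 9.8e-05), but not IFI44L (adjusted p = 1) or IFIT1 (adjusted p = 0.158).

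Sensors of double-stranded RNA and the factors between them and interferon gave 2 of 16 compared members higher with both siRNAs and none lower, with medians of 0.32 and 0.79. IFIH1 (MDA5), a cytoplasmic sensor, was at 24.3, 37.0 and 104 CPM. USP18, which removes ISG15 and restrains interferon signalling, was at 24.7, 39.7 and 80.1 CPM. USP18 is also on the list of interferon-stimulated genes and is counted there as well. DDX58 (RIG-I), another sensor, was at 30.8, 46.0 and 127 CPM, above control with each siRNA and short of the fold with type 1. The interferon genes were too low to be compared. IFNL1 had 2, 7 and 55 counts in the control, type 1 and type 2 libraries and 4 counts with tamoxifen, and IFNB1 had 0, 0 and 3.

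Antigen presentation by MHC class I, which interferon is known to raise, gave 3 of 20 members higher with both siRNAs and none lower, with medians of 0.30 and 1.32. ERAP2, a peptidase that trims peptides for class I, was at 5.29, 11.8 and 10.4 CPM, and its relative ERAP1 at 25.8, 40.5 and 44.0 CPM. TAP2, which pairs with TAP1 to carry peptides into the endoplasmic reticulum, was at 19.01, 28.6 and 41.9 CPM. In all 3 both knockdown libraries were above control, and in ERAP2 type 1 was the higher. B2M, the class I light chain, was at 177, 227 and 881 CPM, and HLA-B at 238, 296 and 981 CPM; both were past the fold with type 2 only. No class I gene was lower past the fold with either siRNA.

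Other named genes that were higher with both siRNAs include some outside these lists. PERM1, a regulator of mitochondrial genes in muscle, was at 5.41, 10.6 and 10.8 CPM. PRICKLE2, of the planar cell polarity pathway, was at 6.36, 12.3 and 13.5 CPM, and SP140L, a chromatin reader, at 5.41, 10.4 and 10.3 CPM. In these 3 both knockdown libraries were above control and lay side by side. CEACAM1, a cell adhesion molecule, was at 3.68, 6.96 and 19.02 CPM. TRANK1 was at 9.39, 17.7 and 45.3 CPM, SAMD9L at 1.54, 3.51 and 14.2 CPM, IFITM1, which hinders viral entry, at 13.5, 25.7 and 94.9 CPM, and IFI44 at 12.4, 24.2 and 119 CPM. These 5 were higher with type 2 than with type 1.

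**Figure D3:**
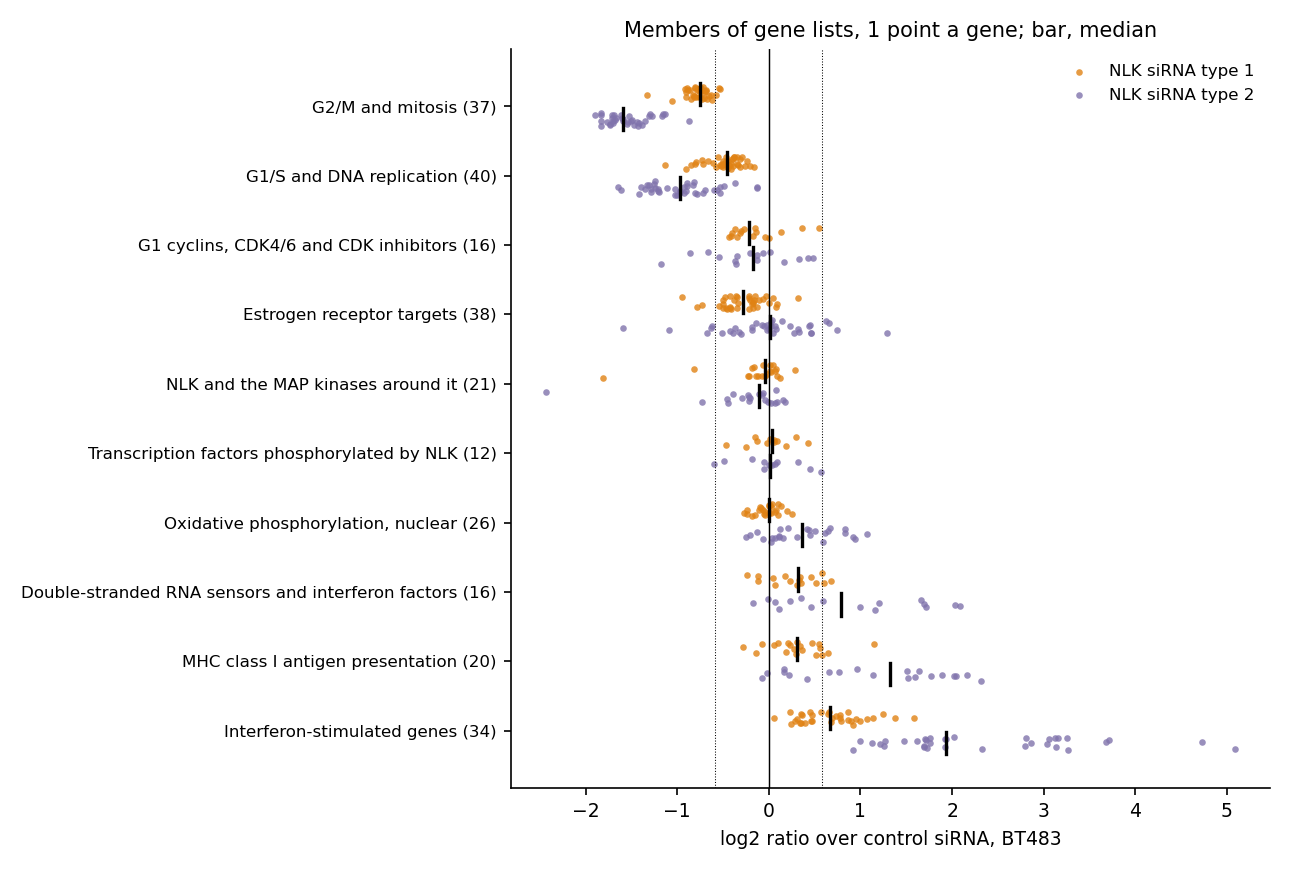
Log2 ratio over control siRNA in BT483 of each compared member of 10 gene lists, with type 1 in orange and type 2 in purple; black bars are medians and dotted lines mark 1.5-fold. The G2/M medians are -0.75 and -1.59, the interferon-stimulated medians 0.67 and 1.93, and the medians of the kinase and transcription factor lists around NLK are near 0.

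The kinases around NLK gave 2 of 21 lower with both siRNAs and none higher, with medians of -0.041 and -0.11. They were NLK and MAP3K20 (ZAK), a kinase that senses stalled ribosomes and other stress. MAP3K20 was at 54.7, 31.0 and 33.0 CPM, and at 43.6 CPM with tamoxifen, so that both knockdown libraries were below both controls. Its edgeR log2 fold change was -0.78 (SE 0.20, adjusted p = 0.698), and with the siRNA type as a block -0.77 (SE 0.18, adjusted p = 0.00524). MAP3K7 (TAK1), which acts above NLK, was at 35.2, 32.4 and 37.3 CPM. MAPK14 (p38α) was at 87.0, 87.5 and 84.7 CPM. Their log2 ratios lay between -0.12 and 0.084.

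Transcription factors that NLK is known to phosphorylate gave 0 of 12 compared members past the fold with both siRNAs, with medians of 0.034 and 0.018. FOXO1 was at 6.30, 8.51 and 7.90 CPM, STAT3 at 214, 227 and 293 CPM, and TCF7L2 at 45.2, 55.4 and 48.1 CPM. Wnt targets and feedback genes gave 0 of 7, with medians of -0.13 and -0.098. AXIN2, the usual readout of β-catenin activity, was at 2.26, 1.08 and 2.33 CPM and too low to be compared. RNF43 was at 5.35, 6.89 and 9.33 CPM and ZNRF3, a like feedback ligase, at 12.4, 12.4 and 12.2 CPM. MYC was at 74.4, 67.9 and 53.9 CPM, lower with each siRNA by less than the fold. Notch targets gave 0 of 8 and FOXO targets 0 of 15. Over all genes 1.15% were lower and 0.514% higher with both siRNAs, so a count of 0 in lists of this size is near the background and is no result about them.

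Estrogen receptor targets gave 0 of 38 compared members past the fold with both siRNAs. Beside 1.15% lower and 0.514% higher over all genes, that count is near the background. With type 1 their median log2 ratio was -0.28, and with type 2 it was 0.012. With type 1, 34 of the 38 were below 0, against 52.1% of all genes compared. With type 2, 18 were, against 47.5%. With the siRNA type as a block edgeR called 2 of 39 lower, STC2 and AGR2, and 0 higher. ESR1, the receptor, was at 161, 126 and 153 CPM, and at 129 CPM with tamoxifen. GREB1, a coactivator and classic target, was at 815, 587 and 648 CPM, with log2 ratios of -0.47 and -0.33. TFF1, trefoil factor 1, was at 714, 490 and 757 CPM, with log2 ratios of -0.54 and 0.084. PGR, the progesterone receptor, was at 12.7, 12.6 and 31.1 CPM, past the fold with type 2 only. With tamoxifen GREB1 stood at 84.3 CPM, TFF1 at 69.0 CPM and PGR at 1.12 CPM, each below both knockdown libraries.

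Of the other lists, ERK feedback gave 1 of 16 lower with both siRNAs, ETV4, a transcription factor induced by ERK signalling (17.6, 10.1 and 7.51 CPM). Amino acid stress genes under ATF4 gave 1 of 28 higher, NUPR1, a stress-induced chromatin protein (2.55, 3.92 and 9.33 CPM). NUPR1 was under 5 CPM with control and type 1, so it was compared only through the type 2 library, in which it is high. No member passed the fold with both siRNAs in the lists for NF-κB and inflammation, ERBB receptors, luminal factors, the unfolded protein response, cholesterol and fatty acid synthesis, the BCL2 family, lysosome and autophagy, glycolysis, cytosolic ribosomal proteins, nucleolar ribosome biogenesis, mitochondrially encoded genes, nuclear oxidative phosphorylation and small RNA silencing. Nuclear oxidative phosphorylation genes had a median of -0.0015 with type 1 and 0.37 with type 2, where 22 of 26 were above 0, against 52.5% of all genes compared. In T47D-TamR their medians were 0.15 with type 1 and -0.39 with type 2, so the direction with type 2 was the opposite there. As for the lists around NLK, a count of 0 is near the background.

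The named genes include the 4 at each end of type 2 minus type 1. IFI27 and IFI44L, described above, are among those furthest higher with type 2, by 4.02 and 3.14 on the log2 scale. TWF1 (twinfilin), an actin-binding protein, was at 83.2, 87.9 and 21.5 CPM with control, type 1 and type 2. In T47D-TamR it was at 139.7, 100.5 and 12.7 CPM, again far lower with type 2. No match to either seed was found in its 3′ UTR. HEY1, a Notch target, was at 4.93, 12.02 and 2.57 CPM, above control with type 1 and below with type 2. FBN2 (fibrillin 2) was at 6.36, 12.4 and 3.42 CPM, and NEDD9, a scaffold of focal adhesions, at 5.94, 8.64 and 2.41 CPM. DHRS2, a short-chain dehydrogenase, was at 3.68, 2.16 and 22.0 CPM. RN7SL5P, a copy of the signal recognition particle RNA, was at 9.92, 1.55 and 14.3 CPM, and RN7SL1, that RNA itself, at 295, 64.8 and 420 CPM. Reads of these near-identical copies, and of TWF1 and its pseudogene TWF1P1 (48.9, 50.4 and 12.1 CPM), may have been split by the counting and are uncertain.

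Transcripts with a match to a guide's seed were compared with those without, over 10779 genes with a 3′ UTR. With type 2, the 1163 genes holding the site of siRNA #2 had a median log2 ratio of -0.11, against 0.034 for the 9616 without. Of those with the site 10.4% were at least 1.5-fold lower with type 2, against 4.47% of the others. With type 1 the same site gave medians of 0.0072 and -0.012. For siRNA #1 and type 1 the medians were -0.042 over 914 genes with the site and -0.0073 over the rest, with 3.28% and 2.04% lower. Among genes lower with both siRNAs, 7.75% held the site of siRNA #1, beside 8.48% of all, and 11.6% that of siRNA #2, beside 10.8%. The genes lower with both siRNAs thus held either site about as often as all genes did. Of the 15 of them named first besides NLK, TOP2A held 1 site of each siRNA. E2F7, CEP55 and CCNA2 held 1 site of siRNA #1, and the others held neither.

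**Figure D4:**
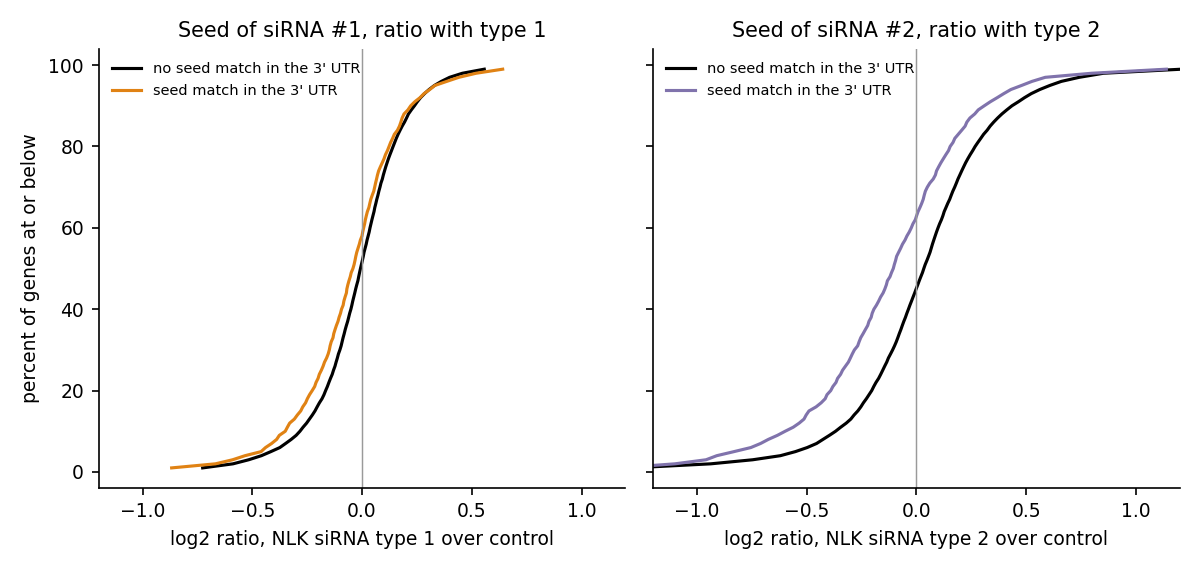
Cumulative distribution of the log2 ratio over control siRNA in BT483 for genes with (coloured) and without (black) a match to the guide seed in the 3′ UTR, from the 1st to the 99th percentile, for siRNA #1 with type 1 (left) and siRNA #2 with type 2 (right). The horizontal axes stop at -1.2 and 1.2. For siRNA #2 the coloured curve lies at lower values throughout, with medians of -0.11 with and 0.034 without the site; for siRNA #1 the curves lie close and cross at the upper end.

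Promoters were searched for 5 short motifs on both strands, from 250 bases before to 50 after the RefSeq start (GRCh38.p14), for 9050 of the 12268 genes. The core of the interferon-stimulated response element, searched as a pair of GAAA runs with 2 bases of any kind between them, was found in 19 of 48 promoters of genes higher with both siRNAs (39.6%) and in 2.56% of all. TTTGAA, the core of the cell cycle homology region of mitotic genes, was found in 47 of 103 promoters of genes lower with both (45.6%) and in 9.01% of all. TTTNNCGC, an E2F core, was found in 23 of these 103 (22.3%) and in 10.8% of all. CTTTGAT, a TCF/LEF core, was found in 0 of 103 and in 1.24% of all, and GTAAACA, a FOXO core, in 0.97% and 2.14%. TTTGAA and CTTTGAT share the letters TTTGA but differ in the next base, so the same TTTGA cannot match both. Windows of 30 bases with the motif in capitals are shown for 5 named genes, read on the strand of the gene.
IFIT1: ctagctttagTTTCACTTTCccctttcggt
IFITM1: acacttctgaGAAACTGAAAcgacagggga
TOP2A: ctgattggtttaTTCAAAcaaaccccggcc
DLGAP5: cggtgcggcaagTTTGAAtttcgtggaggc
E2F1: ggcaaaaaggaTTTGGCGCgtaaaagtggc
They lie at chr10:89392497-89392526 (plus strand), chr11:314024-314053 (plus), chr17:40418030-40418059 (minus), chr14:55191565-55191594 (minus) and chr20:33686387-33686416 (minus). A match describes the sequence only.

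T47D-TamR gave a comparison with its own control library. There 302 of 11669 genes were lower with both siRNAs (2.59%) and 53 higher (0.454%). Over the 10732 genes compared in both lines, 130 were lower with both siRNAs in BT483 and 273 in T47D-TamR, and 22 were shared, which is 16.9% of the first and 8.06% of the second. The shared genes included NLK, MAP3K20 and TOP2A, the kinesins KIF11, KIF14, KIF18A and KIF20B, the condensin subunits SMC4 and NCAPG, the kinetochore and spindle genes CENPE, CENPF, KNL1, SGO2, TTK, HMMR, ASPM and DLGAP5, and ANLN, ESCO2, FAM111B and FAM217B. Of the genes higher with both, 44 in BT483 and 38 in T47D-TamR, 1 was shared, ISG15. It was 2.27% of the first and 2.63% of the second.

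In T47D-TamR the 130 genes had medians of -0.059 with type 1 and -0.28 with type 2, against -0.74 and -1.41 in BT483. The G2/M list had medians of -0.16 and -0.75 in T47D-TamR, where 13 of 37 were lower with both. The G1/S list had medians of 0.082 and -0.088, and 0 of 40 were lower with both. E2F1 in T47D-TamR was at 97.9, 123 and 96.5 CPM with control, type 1 and type 2. MAP3K20 was at 188, 108 and 82.8 CPM. TOP2A was at 355, 115 and 133 CPM, with each knockdown library below control as in BT483. The interferon-stimulated list had medians of 0.11 and 0.86, with 2 of 33 higher with both. IFIT1 was at 114.6, 120.5 and 259 CPM. The edgeR test of the difference between the lines called 0 of 24023 genes (0%), with 735 at an unadjusted p under 0.05, and DESeq2 and limma also called 0, with 350 and 670 at an unadjusted p under 0.05. It called 21 with no filter, 5 without BT483 type 1 and 1 without T47D-TamR type 1. With the siRNA type as a block it called 49 genes, 42 with a lower log2 fold change in BT483 (0.175%) and 7 with a higher one (0.0291%). Among the 42 were 12 of the G2/M list and 7 of the G1/S list, and among the 7 were 3 interferon-stimulated genes. E2F1 was called (log2 difference -1.16, edgeR with the block, adjusted p = 0.00757) and TOP2A was not (-0.23, adjusted p = 1).

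**Figure D5:**
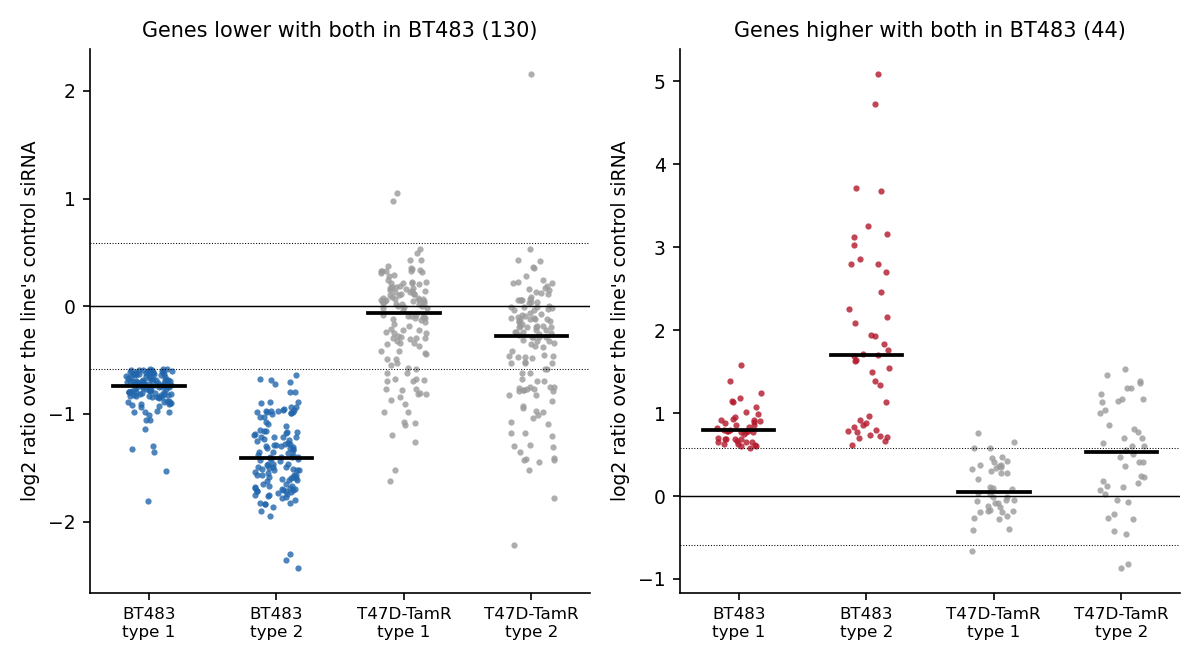
Log2 ratio over the control siRNA library of the same line for genes lower (left, 130) or higher (right, 44) with both siRNAs in BT483 that were compared in both lines; 1 point is a gene, bars are medians and dotted lines mark 1.5-fold. The BT483 values chose the genes, so their position is fixed by that choice; the T47D-TamR medians are -0.059 and -0.28 on the left and 0.053 and 0.53 on the right.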

How the data were processed

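Poly(A) RNA libraries, stranded and sequenced in pairs, came from 11 samples, 1 a group. The deposited counts are raw and given by gene symbol, for 59087 genes, made on GRCh38 per the submitters' processing notes. The sources used here do not give the aligner, annotation or counting settings, and the labels name different RNA extraction kits in different places. The authors also deposited log2(TPM + 1) values per library and a normalized log2 TPM table of the series, in which 23 gene names had turned into dates. The number of columns without a sample was 0.

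Counts were scaled with TMM factors over the 4 BT483 libraries. Log2 ratios used a prior count of 2. Genes with a mean of at least 5 CPM over the 3 libraries were compared, and a gene past 1.5-fold in the same direction with both siRNAs was counted. Intervals are exact 95% binomial intervals given the sum of both counts. In BT483 3 counts correspond to 0.117 to 0.205 CPM. Tests came from edgeR 4.0.16 in R 4.3.3: filterByExpr, robust quasi-likelihood, 2-sided, Benjamini-Hochberg over 24023 genes, threshold 0.05, with context, knockdown per line, tamoxifen per line and VX-702 as terms. This made 2 tests across genes. A fit with the siRNA type as a block, same-type libraries of both lines sharing a reagent per the labels, was added after the data were seen. The procedure was tested on simulated data, where genes made without a difference passed the 1.5-fold rule at least as often as the genes counted. Their spread was that of the fit of all 11 libraries, which need not be that of the BT483 libraries. DESeq2 1.42.0 and limma 3.58.1 were alternatives, with other scalings, filters, folds, values and control.

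Transcript lengths, GC contents, 3′ UTRs and siRNA sites came from GENCODE 29, which names 56414 of the 59087 genes, and promoters from RefSeq. Of 737 symbols on 32 lists, 7 were not used here.

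The members, lists and rules were chosen with earlier results of these data known. Named genes were NLK; the 15 lower and 15 higher with both siRNAs by the smaller of the 2 log2 ratios, without clones, pseudogenes or unnamed genes; up to 4 a list; any gene called; ESR1, PGR, GREB1, TFF1, MYC and CCND1; and the 4 genes at each end of type 2 minus type 1. A first version of the pseudogene filter dropped CEP55, ERAP2 and DLGAP5 by their spelling, and was corrected after the values were seen to need the annotated pseudogene class. Further genes named from the lists, RN7SL1 and TWF1P1 were chosen after their values were seen. Some genes that the counts include are not reported here by name.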

Additional observations from a re-analysis of the deposited data

Results flagged for a closer look

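Of the genes compared in both lines, 2 were past 1.5-fold with both siRNAs in opposite directions in BT483 and T47D-TamR. LRRK2, a large kinase, was at 7.01, 12.2 and 11.2 CPM with control, type 1 and type 2 in BT483 and at 23.1, 14.5 and 13.0 CPM in T47D-TamR. Its mean log2 ratio in BT483 minus T47D-TamR was 1.47. FP236383.2, known only by a clone name, was at 11.8, 4.73 and 5.72 CPM in BT483 and at 4.05, 8.05 and 18.4 CPM in T47D-TamR, with a difference of -2.73. In the edgeR test of the difference between the lines both had an adjusted p = 1. With the siRNA type as a block, chosen after the data were seen, FP236383.2 passed that edgeR test (adjusted p = 0.00295) and LRRK2 had an adjusted p = 0.0557.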

How the results depend on the processing

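The counts of genes with both siRNAs turned on the filter and the fold. Lower and higher genes numbered 306 and 291 at a mean of at least 1 CPM, 72 and 26 at 20 CPM, 3341 and 1970 with no filter, and 8 and 7 at 2-fold. Against control siRNA with tamoxifen there were 565 higher genes and 169 lower. On that control the G2/M list had 0 and the G1/S list 0 members lower with both, the interferon-stimulated list had 29 higher, and the median log2 ratios changed sign to 2.03 and 1.17 for G2/M and 1.38 and 1.02 for G1/S. Library totals, DESeq2 size factors, a prior count of 0.5, the deposited log2 TPM values, the normalized table and an adjustment for length and GC content gave 106 to 150 lower and 44 to 66 higher genes.

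The test of knockdown in BT483 called 1 gene. It called 163 with no filter, 0 with at least 10 counts in every library, 2 with DESeq2 (in which NLK had no adjusted p), 0 with limma, 0 in the 4 BT483 libraries alone, and from 0 to 149 when a library was left out, 149 without BT483 type 1. The test between lines called 0; it called 21 with no filter, and from 0 to 5 when a library was left out, 5 without BT483 type 1 and 1 without T47D-TamR type 1. The causes were not tested. The BT483 control library could not be left out, since the comparison has no other. With the siRNA type as a block, an alternative chosen after the data were seen, the test of knockdown called 282 genes and the test between lines 49. The block assumes that the siRNAs differ alike in both lines, which the medians of nuclear oxidative phosphorylation genes did not. Depth limits the interferon genes, which had few counts.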
